A study of Mus musculus with 10 samples.

Results

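The genes described here are 35 endothelial and vessel genes, chosen by name from a list of mouse symbols and all found once among the 55401 genes of the count table. They were read in 10 subcutaneous KPN1.1 tumors, 5 from obese mice that received liraglutide and 5 from obese mice that received a PBS vehicle. All were grown from KPN1.1 cells, a lung adenocarcinoma line of the mouse. All mice were male C57BL/6J animals made obese by diet, were 7 to 17 weeks old at injection, and received 75000 cells in the flank. Once tumors were palpable, liraglutide, an agonist of the GLP-1 receptor, was given intraperitoneally each day at 0.2 μg per gram of body weight, and control mice received PBS by the same route. Mice were euthanized 19 to 22 days after the cells were injected. RNA came from a frozen piece of each tumor, so cancer cells, vessels, leukocytes and any attached host tissue were read together, and vessels in a flank tumor are host vessels of subcutaneous tissue, not of the lung. The labels number the tumors 1 to 5 in each group without naming the mouse, and p-values measure the spread between these tumors.

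Endothelial cells line blood and lymphatic vessels and are held together by junction proteins such as VE-cadherin. Tumor vessels grow when VEGF released by hypoxic cells acts on VEGF receptors, after which tip cells lead the sprout, Notch signaling through DLL4 restrains their neighbors, and angiopoietins acting on TIE2 govern whether a new vessel is stabilized. Transcription factors of the ETS and SOXF families hold the endothelial program in place.

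Because ETS factors are known regulators of many endothelial genes, the sequence before the start site is shown for 3 receptor genes whose behavior across tumors is compared later. Kdr and Tie1 kept a steadier ratio to the vessel marker Pecam1 across tumors than Flt1 did. Each sequence is the 250 bases before the start site in RefSeq (GRCm38.p6), printed 5′ to 3′ on the gene's strand, and capitals mark GGAAG or its reverse complement CTTCC, a core bound by ETS factors. Flt1 lies at chr5:147726012-147726261, Kdr at chr5:75978456-75978705 and Tie1 at chr4:118489850-118490099, all on the minus strand.
Flt1: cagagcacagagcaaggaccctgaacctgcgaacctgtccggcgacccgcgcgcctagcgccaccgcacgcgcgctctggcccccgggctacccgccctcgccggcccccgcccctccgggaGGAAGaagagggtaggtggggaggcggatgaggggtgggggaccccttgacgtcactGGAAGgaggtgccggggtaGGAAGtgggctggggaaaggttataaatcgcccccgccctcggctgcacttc
Kdr: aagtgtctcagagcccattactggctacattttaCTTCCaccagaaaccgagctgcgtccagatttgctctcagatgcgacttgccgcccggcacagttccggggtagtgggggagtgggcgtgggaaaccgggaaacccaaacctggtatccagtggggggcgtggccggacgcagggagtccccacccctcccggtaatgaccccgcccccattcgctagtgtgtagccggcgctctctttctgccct
Tie1: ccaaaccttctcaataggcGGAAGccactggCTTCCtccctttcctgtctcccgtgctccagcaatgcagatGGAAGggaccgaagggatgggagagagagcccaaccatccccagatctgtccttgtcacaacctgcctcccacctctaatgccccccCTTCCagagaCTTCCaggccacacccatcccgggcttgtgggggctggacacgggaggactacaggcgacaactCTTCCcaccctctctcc
The 3 windows hold 3, 1 and 6 matches. The same RefSeq table held a window for 20 of the 35 genes, among them Erg, Dll4, Notch4, Tek, Flt4 and Esm1. In windows of 300 bases (250 before and 50 after the start), searched on both strands, GGAAG occurred in 16 of these 20 (80.0%) and in 71.1% of all 27025 promoters. ACAAT, the SOX core, occurred in 6 of 20 (30.0%) against 31.6%, TGGGAA, a core of the Notch effector RBPJ that can overlap GGAAG, in 4 of 20 (20.0%) against 25.5%, and ACGTG, the HIF core, in 2 of 20 (10%) against 19.7%. A match is a description of these letters, not a bound site.

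Total counts per tumor lay between 9927942 and 14480593, and 35141 genes had a count in at least 1 tumor. Levels are given as CPM, a gene's counts scaled to a fixed library size after TMM correction, and per kilobase of exon where different genes are set side by side. A level of 3 counts corresponded to 0.207 to 0.315 CPM, which serves as a floor and covers counting error only. Groups were compared with edgeR's quasi-likelihood test on 17464 genes, and positive log2 fold changes mean higher with liraglutide. At an adjusted p under 0.05 edgeR called 0 of the 17464 genes (0%), limma-voom 0 and DESeq2 40 (0.229% of 17445). Fitted changes are therefore given as values and not as changes throughout.

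The comparison asked whether tumors from liraglutide-treated mice carried more or less vessel RNA than tumors from vehicle-treated mice, and no endothelial gene passed the test. Of the 34 endothelial genes that could be tested, 0 had an adjusted p under 0.05 with edgeR, limma-voom or DESeq2, and the smallest adjusted p with edgeR was 0.515. The fitted log2 fold change was positive for 19 genes and negative for 15. Its median was 0.01, against -0.02 over all genes tested, of which 47.4% were positive. The fitted values ran from -0.61 for Dll4 to 0.45 for Sox7, with standard errors between 0.145 and 0.439. For 32 of the 34 the fitted change was under 0.58 in size, as it was for 90.2% of all genes. At an unadjusted p under 0.05, 1 endothelial gene was lower with liraglutide (Vwf) and 0 were higher, where 5.62% of all genes were lower and 3.97% were higher. With limma-voom no endothelial gene reached that unadjusted level, and with DESeq2 1 did. In 0 of the 34 did the 5 liraglutide values lie clear of the 5 vehicle values, against 1.49% of all genes. In bulk tumor RNA, fewer endothelial cells, less RNA per endothelial cell and RNA of the same genes from other cells cannot be told apart.

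**Figure D1:**
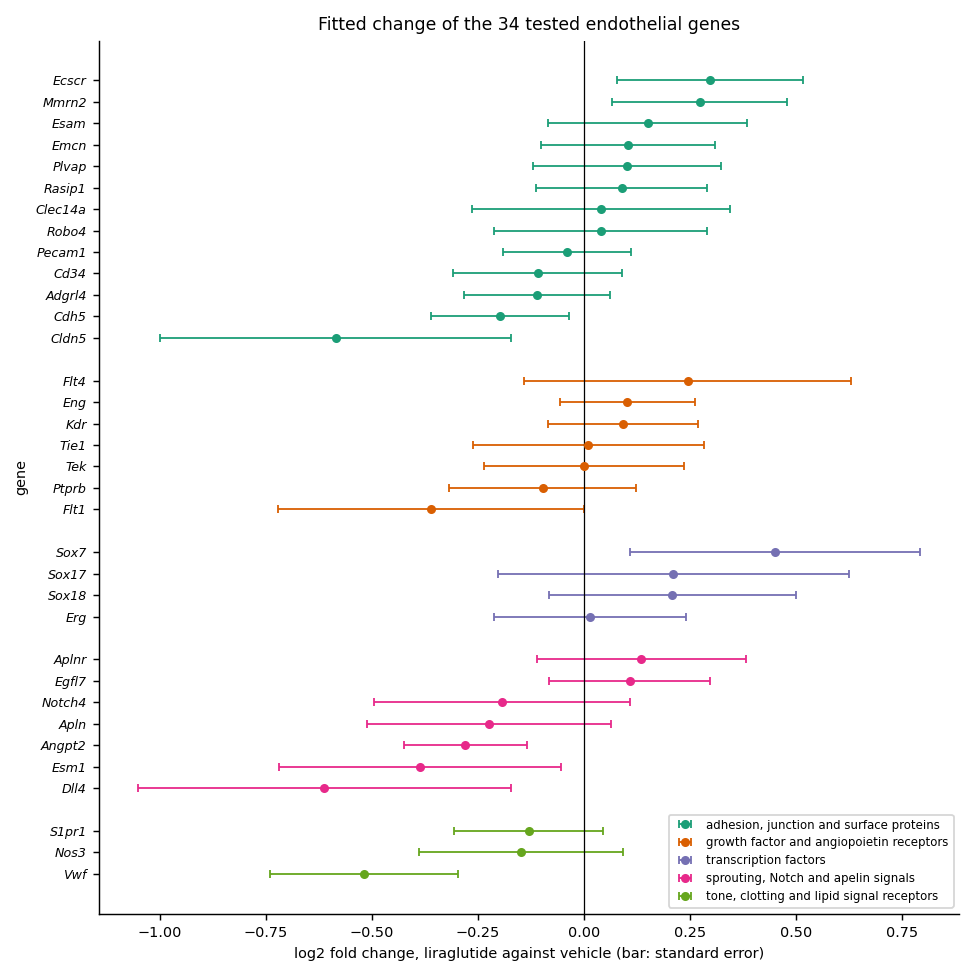
Log2 fold change (x axis) of the 34 tested endothelial genes (y axis) between 5 liraglutide and 5 vehicle tumors, with bars of 1 standard error and colors for the 5 role groups. The points lie between -0.61 (Dll4) and 0.45 (Sox7) on both sides of 0, and none passed an adjusted p under 0.05.

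Levels per kilobase spanned a wide range. The length used was that of all annotated exons of a gene merged, 16729 bases for Vwf and 1625 for Sox18. The order between genes therefore depends on the annotation, and in CPM Vwf was at 18.2 and Sox18 at 2.19 in vehicle tumors. Exons that Angpt2 and Sox18 share with other genes are given below. Flt1 had the highest level in vehicle tumors, 18.2 ± 7.86 CPM per kb (SD, n = 5), followed by Cdh5 at 9.68 ± 2.51 and Ptprb at 7.71 ± 2.38. Ecscr and Angpt2 followed at 6.83 ± 2.01 and 5.96 ± 1.16 CPM per kb, and these neighbors in the order lay within each other's spread. Pecam1 stood at 3.36 ± 0.73 and Kdr at 2.58 ± 0.54 CPM per kb. The transcription factors were not alike, with Sox18 at 1.35 ± 0.365, above Vwf at 1.09 ± 0.337, and with Erg at 0.967 ± 0.266, Sox7 at 0.314 ± 0.101 and Sox17 at 0.212 ± 0.0734 CPM per kb. Among the other genes below Erg were Tek, Clec14a and Nos3. Prox1, the factor that sets lymphatic identity, was lowest at 0.0714 ± 0.0774 CPM per kb. It had 1 to 22 counts per tumor, did not pass the filter on low counts and was not tested. At least 6 counts of every other endothelial gene were present in each tumor. Prox1 was below the 3-count floor in vehicle tumors 1 and 2 and above it in the other 8.

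Among the 13 adhesion, junction and surface genes, 8 had positive and 5 negative fitted changes, with a median of 0.04. Pecam1 encodes PECAM-1 (CD31), the usual histological marker of vessels. Its level was 29.4, 41.7, 41.5, 27.4 and 28.3 CPM in vehicle tumors 1 to 5 and 32.8, 27.02, 33.3, 34.8 and 35.5 CPM in liraglutide tumors 1 to 5. Vehicle tumors 2 and 3 were the highest of the 10, and the liraglutide tumors lay inside the vehicle range except for tumor 2, just below it. The fitted log2 fold change of Pecam1 was -0.04 ± 0.15 (SE; edgeR, adjusted p = 0.942), and 0.02 with library size alone in place of TMM.

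Cdh5, which encodes VE-cadherin, the adhesion molecule of endothelial junctions, had 38.9, 55.1, 52.9, 31.1 and 33.97 CPM in the vehicle tumors. In the liraglutide tumors it had 38.9, 33.3, 36.8, 39.3 and 36.5 CPM. All 5 liraglutide values lay close together within the vehicle range, while vehicle tumors 2 and 3 stood well above the rest. Cdh5 had a fitted log2 fold change of -0.20 ± 0.16 (edgeR, adjusted p = 0.693).

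Cldn5, a claudin of tight junctions, had the largest fitted change of the surface genes. Its level was 1.52, 3.75, 3.15, 1.51 and 0.977 CPM in vehicle tumors and 2.25, 1.63, 1.06, 1.51 and 0.744 CPM in liraglutide tumors. The groups overlapped broadly, since vehicle tumors 2 and 3 were highest and the other 8 tumors were mixed. For Cldn5 the fit gave -0.59 ± 0.41 on the log2 scale (edgeR, adjusted p = 0.650), and as few as 10 counts lay behind a value. The fitted value was -0.30 without vehicle tumor 2 and -0.80 without liraglutide tumor 1. The remaining surface genes had fitted changes between -0.11 and 0.30. At the upper end were Ecscr, a regulator of endothelial migration, at 0.30 ± 0.22 and Mmrn2, a vessel matrix protein that binds the lectin encoded by Clec14a, at 0.27 ± 0.21. Clec14a itself was at 0.04 ± 0.30. Esam, an immunoglobulin-family junction protein, was at 0.15 ± 0.24, Emcn, a sialomucin of capillaries and veins, at 0.11 ± 0.21, and Plvap, which forms the diaphragms of fenestrae and caveolae, at 0.10 ± 0.22. Rasip1, which is needed for vessel lumens, was at 0.09 ± 0.20 and Robo4, a guidance receptor that stabilizes vessels, at 0.04 ± 0.25. Adgrl4, an adhesion G protein-coupled receptor, and Cd34, a sialomucin also carried by progenitor cells and some fibroblasts, were both at -0.11, with standard errors of 0.17 and 0.20.

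Of the 7 receptor genes, 5 had positive and 2 negative fitted changes, with a median of 0.01. Kdr encodes VEGFR2, the main signaling receptor for VEGF. Kdr had 21.7, 23.5, 32.3, 20 and 21.2 CPM in vehicle tumors and 20.2, 19.2, 28.9, 27.5 and 30.7 CPM in liraglutide tumors. Liraglutide tumors 3, 4 and 5 were above every vehicle tumor but tumor 3, whereas liraglutide tumor 1 was just above the lowest vehicle value and liraglutide tumor 2 below it. Its log2 fold change was 0.09 ± 0.18 (edgeR, adjusted p = 0.874).

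Flt1 encodes VEGFR1, which binds VEGF and PlGF and, in its soluble form, acts as a trap for them. Flt1 had 377, 342, 145, 148 and 231 CPM in vehicle tumors and 147, 368, 115, 196 and 141 CPM in liraglutide tumors. Vehicle tumors 1 and 2 and liraglutide tumor 2 stood apart at 342 CPM or more, and the other 7 tumors of both groups lay between 115 and 231. The fitted log2 fold change of -0.36 ± 0.36 equaled its standard error (edgeR, adjusted p = 0.741). It was -0.16 without vehicle tumor 1 and -0.72 without liraglutide tumor 2. Ptprb, which encodes the phosphatase VE-PTP that acts on TIE2 and VE-cadherin, was highest in vehicle tumor 1 and liraglutide tumor 2 as well. Its level was 164, 122, 80.4, 101 and 85.1 CPM in vehicle and 87.3, 143, 81.05, 116 and 89.3 CPM in liraglutide tumors, with a log2 fold change of -0.10 ± 0.22.

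Flt4 encodes VEGFR3, the receptor of lymphatic and sprouting endothelium. Flt4 had 7.18, 8.82, 9.03, 15.7 and 6.68 CPM in vehicle tumors and 7.95, 6.04, 8.87, 8.69 and 24.6 CPM in liraglutide tumors. Only vehicle tumor 4 and liraglutide tumor 5 were above 10 CPM, and the other 8 tumors did not separate by group. Flt4 had a fitted log2 fold change of 0.25 ± 0.39 (edgeR, adjusted p = 0.839) and became -0.26 without liraglutide tumor 5. The angiopoietin receptor Tek (TIE2) and its partner Tie1 had fitted changes of 0.00 ± 0.24 and 0.01 ± 0.27. Eng, which encodes the TGF-β and BMP co-receptor endoglin, was at 0.10 ± 0.16.

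**Figure D2:**
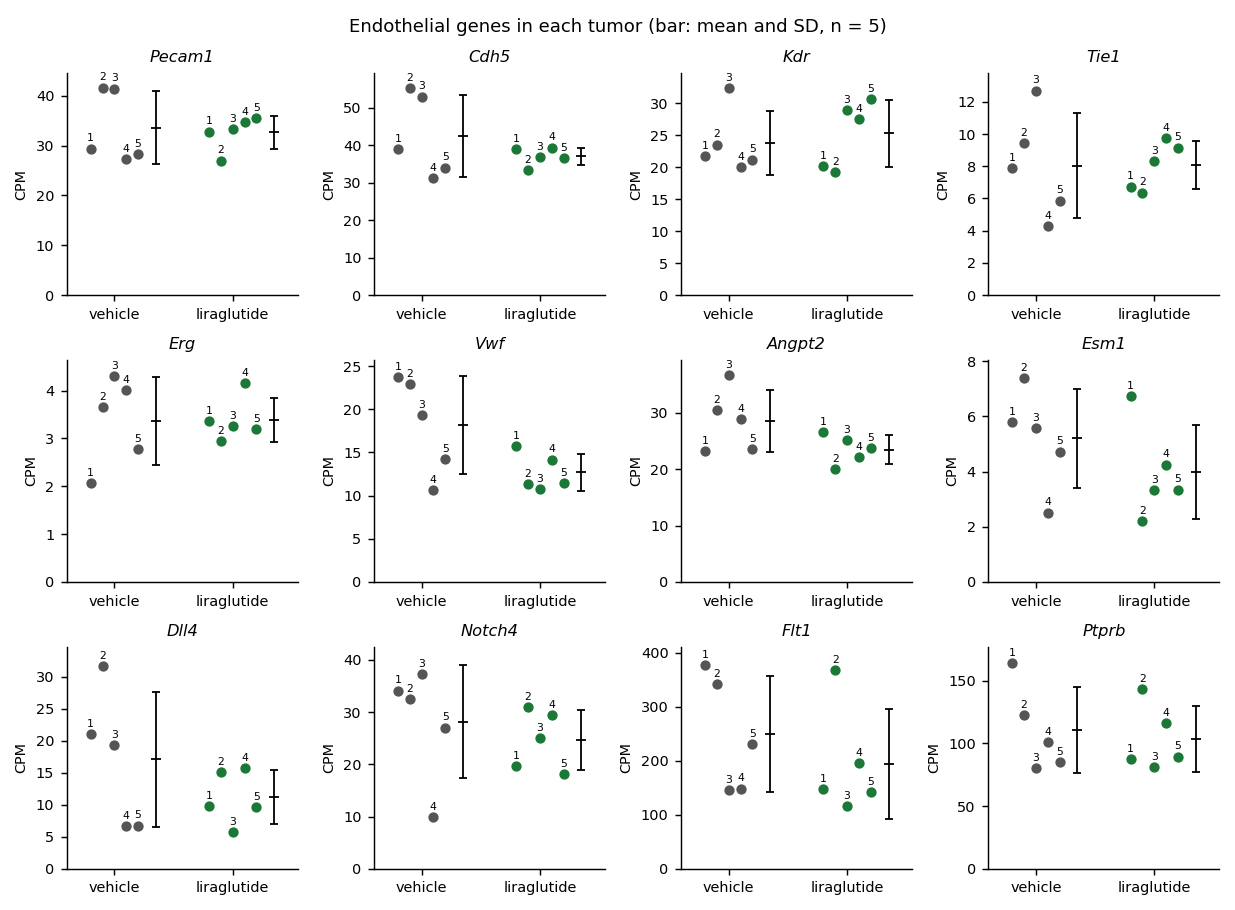
CPM (y axis, from 0) of 12 endothelial genes in the 5 vehicle (gray) and 5 liraglutide (green) tumors, numbered by tumor, with the mean and SD of each group as a bar. The groups overlap in every panel, vehicle tumors 2 and 3 lead in Pecam1 and Cdh5, and Flt1 is at 342 CPM or more in vehicle tumors 1 and 2 and liraglutide tumor 2.

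All 4 tested transcription factors had positive fitted changes, with a median of 0.21, and none passed the test. Erg, the ETS factor that maintains endothelial identity, had 2.07, 3.65, 4.30, 4.02 and 2.77 CPM in vehicle and 3.37, 2.94, 3.26, 4.16 and 3.20 CPM in liraglutide tumors. Erg values were spread from 2.07 to 4.30 CPM in the vehicle group and the liraglutide group lay inside that span. The log2 fold change was 0.01 ± 0.23 (edgeR, adjusted p = 0.987). Sox7 belongs to the SOXF family, which directs arterial and lymphatic development, and had 0.760, 1.42, 1.68, 0.920 and 1.06 CPM in vehicle and 1.12, 0.898, 1.36, 1.89 and 2.60 CPM in liraglutide tumors. Only liraglutide tumors 4 and 5 exceeded the highest vehicle tumor. Its log2 fold change was 0.45 ± 0.34 (edgeR, adjusted p = 0.667), and it was 0.19 without liraglutide tumor 5. The other SOXF members, Sox17 and Sox18, were both at 0.21, with standard errors of 0.41 and 0.29, and liraglutide tumor 5 had the highest level of all 3 SOXF genes. Sox17 rested on as few as 6 counts. Prox1 had 0.138, 0.101, 0.420, 0.753 and 1.79 CPM in vehicle and 1.04, 0.898, 0.682, 0.661 and 0.596 CPM in liraglutide tumors, with its highest level in vehicle tumor 5.

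Of the 7 genes for sprouting, Notch and apelin signals, 5 had negative and 2 positive fitted changes, with a median of -0.22. Dll4, the Notch ligand of tip cells and arterial endothelium, had the most negative fitted change of all the endothelial genes with edgeR, though not with limma-voom (-0.43, against -0.48 for Cldn5), with the tumor number as a block (-0.47, against -0.53), or in 4 of the 10 fits that left out a tumor, where Cldn5 (3 fits) or Vwf (1 fit) was lower. Dll4 had 21, 31.7, 19.3, 6.69 and 6.76 CPM in vehicle tumors and 9.85, 15.1, 5.69, 15.7 and 9.60 CPM in liraglutide tumors. Vehicle tumors 1, 2 and 3 were above all 5 liraglutide tumors, whereas vehicle tumors 4 and 5 were below all but liraglutide tumor 3. Its log2 fold change was -0.61 ± 0.44 (edgeR, adjusted p = 0.654; two-sided exact permutation test, p = 0.444), and it ran from -0.81 to -0.27 when 1 tumor was left out, the latter without vehicle tumor 2.

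Angpt2, the angiopoietin that destabilizes vessels and is stored in endothelial granules, had the smallest p after Vwf. Angpt2 had 23.2, 30.4, 36.6, 28.9 and 23.5 CPM in vehicle tumors and 26.5, 20, 25.1, 22.1 and 23.7 CPM in liraglutide tumors. None of the 5 liraglutide tumors was above the vehicle median, 3 lay inside the vehicle range and 2 below it. Angpt2 had a fitted log2 fold change of -0.28 ± 0.15 (edgeR, unadjusted p = 0.0785, adjusted p = 0.560; two-sided exact permutation test, p = 0.0952). In the GENCODE M39 annotation 70.7% of the exonic bases of Angpt2 are also exonic in Mcph1 on the opposite strand, and the strand setting of the counting was not given in the sources used here, so part of these counts could belong to Mcph1. Exons shared with another annotated gene also covered 27.2% of Rasip1 (Izumo1, same strand), 26.7% of Nos3, 25.8% of Sox18, 21.7% of Plvap, 19% of Sox17, 15.6% of Dll4 and 11% of Eng, the last 6 on the opposite strand.

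Notch4, the endothelial Notch receptor, had 34.1, 32.4, 37.3, 9.96 and 27.04 CPM in vehicle and 19.7, 30.9, 25.02, 29.5 and 18.1 CPM in liraglutide tumors. Vehicle tumor 4 was the lowest of the 10, the other 4 vehicle tumors were between 27.0 and 37.3 CPM, and no liraglutide tumor was above the vehicle median. The log2 fold change was -0.19 ± 0.30 (edgeR, adjusted p = 0.839). Esm1, a tip cell proteoglycan induced by VEGF, was at -0.39 ± 0.33. Apln, the tip cell peptide apelin, and Aplnr, its receptor on neighboring endothelial cells, had fitted changes of -0.22 ± 0.29 and 0.14 ± 0.25. Egfl7, a matrix protein secreted by endothelium, was at 0.11 ± 0.19, and 13.6% of its exonic bases are shared with Agpat2 on the opposite strand.

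All 3 genes for vessel tone, clotting and lipid signaling had negative fitted changes, with a median of -0.15. Vwf encodes von Willebrand factor, the glycoprotein that endothelial cells release to capture platelets. Vwf had 23.8, 22.9, 19.3, 10.6 and 14.2 CPM in vehicle tumors and 15.7, 11.3, 10.8, 14.2 and 11.5 CPM in liraglutide tumors. Vehicle tumors 1, 2 and 3 were above all 5 liraglutide tumors, and vehicle tumor 4 was below all of them, so the groups overlapped. The mean level was 18.2 ± 5.64 CPM in vehicle and 12.7 ± 2.15 CPM in liraglutide tumors, and no liraglutide tumor was above the vehicle median. The log2 fold change was -0.52 ± 0.22 (edgeR, unadjusted p = 0.0391, adjusted p = 0.515), and the two-sided exact permutation test of this single gene gave p = 0.119. Without any 1 of vehicle tumors 1, 2 and 3 or liraglutide tumors 2, 3 and 5, Vwf had an unadjusted p with edgeR of 0.0716 to 0.105. A block for tumor number gave Vwf an unadjusted p of 0.0520 with edgeR. Nos3, the endothelial nitric oxide synthase, was at -0.15 ± 0.24, and S1pr1, the sphingosine-1-phosphate receptor that tightens the endothelial barrier, at -0.13 ± 0.18.

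Tumors of 1 group differed from each other across many of these genes at once. Vehicle tumor 3 had the highest level of the 10 tumors for 13 of the 34 tested genes, liraglutide tumor 5 for 8, vehicle tumor 2 for 6, liraglutide tumor 4 for 4 and vehicle tumor 1 for 3, whereas vehicle tumor 4 had the lowest level for 12. The difference of log2 CPM from the mean of each gene, averaged over the 34 genes, was 0.34 in vehicle tumor 3 and 0.26 in vehicle tumor 2. It was -0.33 in vehicle tumor 4 and -0.22 in vehicle tumor 5. The liraglutide tumors lay between -0.19 (tumor 2) and 0.15 (tumor 4), inside the span of the vehicle tumors. The within-group SD was larger in vehicle tumors for 24 of the 34 endothelial genes (70.6%), a share close to that over all genes tested (70.7%).

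**Figure D3:**
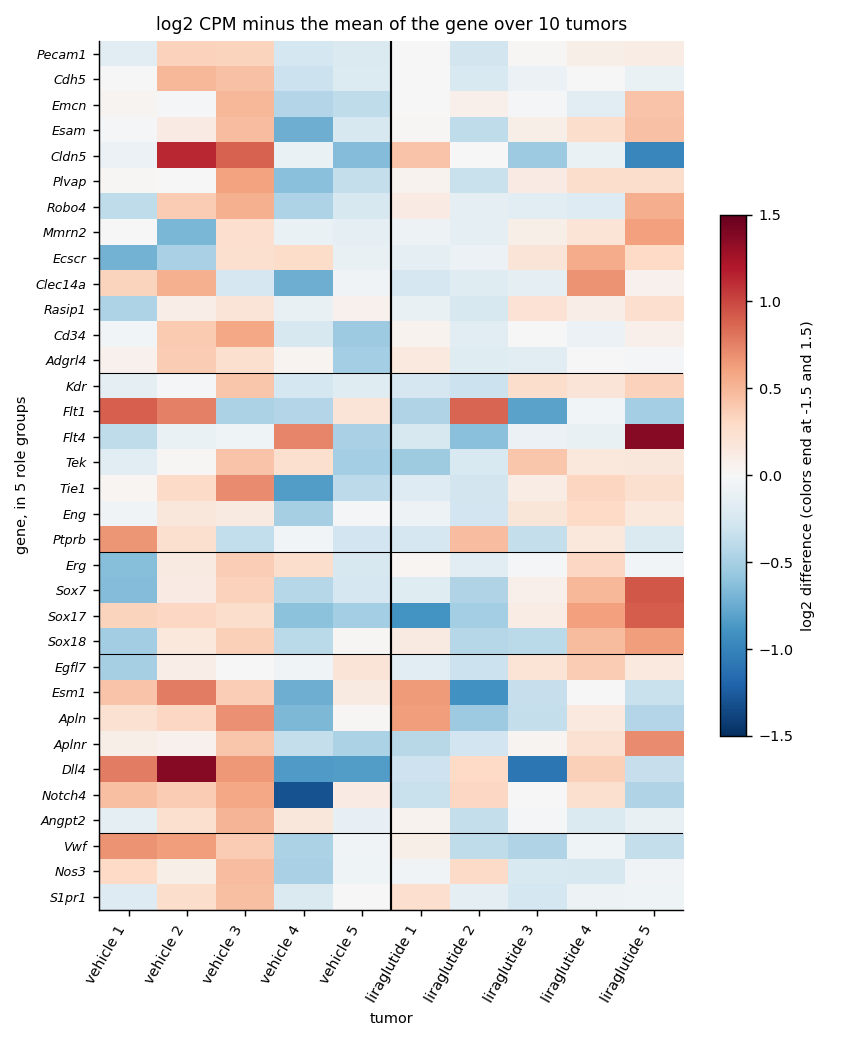
Difference of log2 CPM from the mean of each gene over the 10 tumors (color, red above and blue below), for the 34 tested endothelial genes (y axis, by role group) in each tumor (x axis). Vehicle tumor 3 is red and vehicle tumor 4 blue for most genes, while Flt1, Ptprb and Dll4 follow another order of tumors than Pecam1.

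Several genes were also divided by Pecam1 in the same tumor, to see which kept to it. The choice of Pecam1 and of the genes divided by it was made after their values were seen, and no test was run on the ratios. The Cdh5 to Pecam1 ratio lay between 1.03 and 1.32 in all 10 tumors, a highest value 1.29 times the lowest. Kdr lay between 0.564 and 0.868 (1.54 times) and Angpt2 between 0.636 and 1.06 (1.66 times). Tie1 ranged from 0.156 to 0.306 (1.96 times) and Erg from 0.0704 to 0.147 (2.08 times). Vwf (2.50 times) and Esm1 (2.52 times) came next. The spread was wider still for the rest, in that Flt1 ranged from 3.46 to 13.6 (3.93 times), Ptprb from 1.94 to 5.57 (2.87 times), Notch4 from 0.364 to 1.16 (3.19 times) and Dll4 from 0.171 to 0.762 (4.46 times). Flt1 and Ptprb were highest relative to Pecam1 in liraglutide tumor 2 and vehicle tumor 1. In those tumors the leukocyte marker Ptprc was at 42.4 and 35.6 CPM, among values of 31.7 to 77.0 CPM over all 10, and the bearing of cell mixture on these ratios was not tested. Vwf relative to Pecam1 had a median of 0.504 in vehicle and 0.408 in liraglutide tumors, and the Angpt2 ratio had medians of 0.833 and 0.740.

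**Figure D4:**
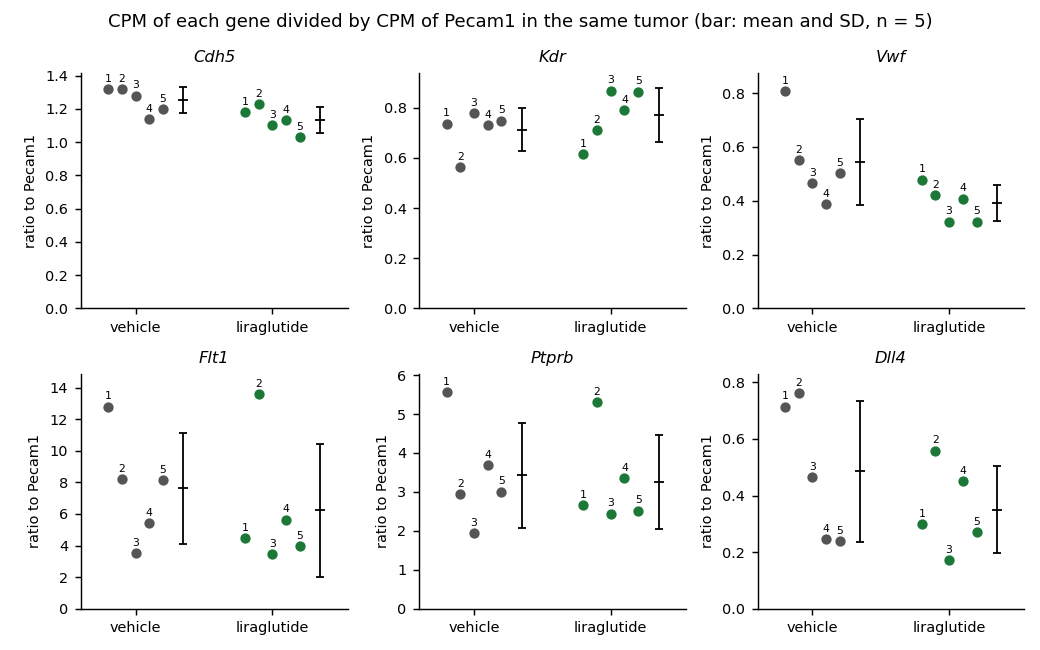
CPM of 6 endothelial genes divided by the CPM of Pecam1 in the same tumor (y axis, from 0) in the 5 vehicle (gray) and 5 liraglutide (green) tumors, numbered by tumor, with mean and SD as a bar. Cdh5 stays between 1.03 and 1.32, while Flt1 spans 3.46 to 13.6 and Dll4 0.171 to 0.762.

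Genes that act on or beside the endothelium were examined as further lists. Among 28 other endothelial genes, 26 were tested, with 13 positive and 13 negative fitted changes and a median of 0.03. At an unadjusted p under 0.05, Tspan18 was higher and Calcrl lower, where 3.97% of all genes were higher and 5.62% lower. Calcrl encodes the receptor of adrenomedullin and CGRP, which is also made outside endothelium. Calcrl had 122, 146, 114, 56.7 and 112 CPM in vehicle and 29.5, 71.01, 45.9, 67.4 and 41.4 CPM in liraglutide tumors, and only vehicle tumor 4 lay within the liraglutide range. Its log2 fold change was -1.11 ± 0.28 (edgeR, unadjusted p = 0.00205, adjusted p = 0.482; DESeq2, adjusted p = 0.0597).

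Of 21 angiogenic ligands, coreceptors and signal genes, 18 were tested, with 13 positive and 5 negative fitted changes and a median of 0.41. None had an adjusted p under 0.05 with edgeR, limma-voom or DESeq2, and at an unadjusted p under 0.05 4 were higher and 1 lower, where 3.97% and 5.62% of all genes were. Vegfa, the main ligand of KDR, had 486, 642, 569.8, 336 and 406 CPM in vehicle and 593, 405, 339, 472 and 369 CPM in liraglutide tumors. The groups overlapped almost entirely, and its log2 fold change was -0.16 ± 0.20 (edgeR, adjusted p = 0.787). Pgf, the ligand PlGF that binds VEGFR1, had 106, 152, 89.6, 12.7 and 14.8 CPM in vehicle and 39.3, 38.04, 8.95, 20.3 and 8.41 CPM in liraglutide tumors. Vehicle tumors 1, 2 and 3 were far above the other 7, and vehicle tumors 4 and 5 were among the liraglutide values. The log2 fold change was -1.71 ± 0.71 (edgeR, unadjusted p = 0.0342, adjusted p = 0.510). Dll4 and Vwf were also higher in vehicle tumors 1, 2 and 3 than in 4 and 5, and so were the summed fibroblast markers (3345, 3529 and 3046 against 1422 and 1440 CPM) and the Notch ligand Jag1 (995, 1106 and 848 against 237 and 181 CPM). The part of cell mixture in this order was not tested.

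Genes with positive fitted changes in the same list included Thbs1, which encodes the angiogenesis inhibitor thrombospondin-1. Thbs1 had 250.3, 322, 223, 270.5 and 201 CPM in vehicle and 397, 295, 305, 393 and 358 CPM in liraglutide tumors. Liraglutide tumors 1, 4 and 5 were above every vehicle tumor, and tumors 2 and 3 were below vehicle tumor 2 alone. Its log2 fold change was 0.46 ± 0.14 (edgeR, unadjusted p = 0.00746, adjusted p = 0.482). Smad6, an inhibitor of BMP signaling, was at 1.12 ± 0.35 and Nrp1, the VEGF coreceptor that is also made by myeloid and stromal cells, at 0.78 ± 0.32 (edgeR, adjusted p of 0.482 and 0.504). Angpt1, the pericyte-derived ligand of TIE2 and the fourth gene at an unadjusted p under 0.05, which is named because of that count and was picked after its values were seen, was at 0.70 ± 0.31.

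**Figure D5:**
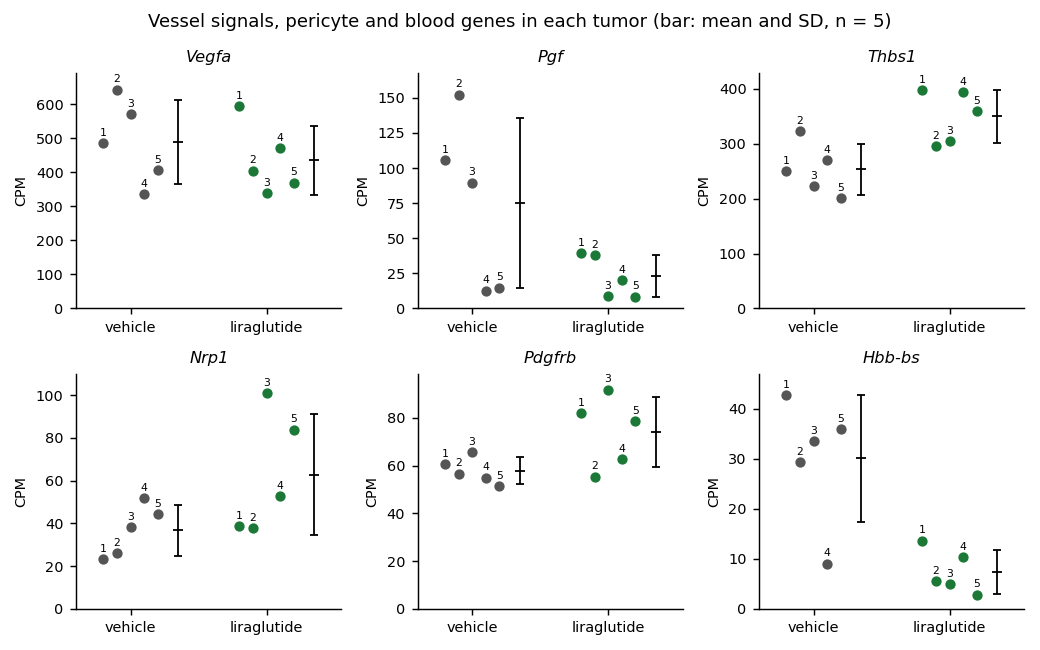
CPM (y axis, from 0) of 3 ligands or matrix signals (Vegfa, Pgf, Thbs1), the coreceptor Nrp1, the pericyte receptor Pdgfrb and the hemoglobin gene Hbb-bs in the 5 vehicle (gray) and 5 liraglutide (green) tumors, with mean and SD as a bar. Vegfa overlaps almost entirely, Pgf is highest in vehicle tumors 1, 2 and 3, and Hbb-bs is at 13.7 CPM or less in the liraglutide tumors and at 29.3 or more in vehicle tumors other than tumor 4.

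Of 9 Notch partners and targets, 8 were tested, 5 with positive and 3 with negative fitted changes (median 0.16). The target Hes1 was the only gene among them at an unadjusted p under 0.05, where 3.97% of all genes were higher. Its log2 fold change was 0.44 ± 0.18 (edgeR, adjusted p = 0.501), a sign opposite to that of Dll4 and Notch4. The negative values in the list were those of Jag1 (-0.60), Dll1 (-0.33) and Hey1 (-0.18). Mural cells, the pericytes and smooth muscle that wrap vessels, were followed with 14 genes, of which 12 were tested, 9 with positive and 3 with negative fitted changes and a median of 0.29. Their summed level was 298 to 418 CPM in vehicle and 279 to 571 CPM in liraglutide tumors. Pdgfrb, the PDGF receptor of pericytes and fibroblasts, had 60.7, 56.6, 65.7, 54.9 and 51.4 CPM in vehicle and 82.1, 55.3, 91.8, 62.5 and 78.5 CPM in liraglutide tumors. Liraglutide tumors 1, 3 and 5 were above every vehicle tumor, and its log2 fold change was 0.36 ± 0.14 (edgeR, unadjusted p = 0.0287, adjusted p = 0.503). Rgs5, a more restricted pericyte gene, was at 0.06 ± 0.20.

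Blood in the tumor pieces was read through 6 red blood cell genes, and whether it lay inside vessels was not tested. Of the 5 that were tested, all had negative fitted changes with a median of -2.02, and 4 were lower at an unadjusted p under 0.05 (5.62% of all genes). With DESeq2 2 of them, Hbb-bs and Hbb-bt, had an adjusted p under 0.05 (0.229% of all genes), and with edgeR or limma-voom none had. Hbb-bs, an adult β-globin gene, had 42.8, 29.3, 33.5, 9.04 and 35.9 CPM in vehicle and 13.7, 5.47, 5.004, 10.3 and 2.83 CPM in liraglutide tumors. Vehicle tumor 4 was the only vehicle tumor inside the liraglutide range. Its log2 fold change was -2.02 ± 0.46 (edgeR, adjusted p = 0.482; DESeq2, adjusted p = 0.0146; two-sided exact permutation test, p = 0.0238). The β-globin genes are near-identical copies, so reads may be split between them. Alas2, the heme synthesis enzyme of red cell precursors, was at -0.13 ± 0.22. The Hbb-bs to Pecam1 ratio was 0.330 to 1.45 in vehicle and 0.0797 to 0.416 in liraglutide tumors, while Pecam1 itself differed by -0.04 on the log2 scale. Of the 4 platelet genes tested, 3 had positive and 1 a negative fitted change. Pf4, the platelet chemokine, was at -0.15 ± 0.23. Itgb3, an integrin that endothelium and myeloid cells also make, was at 0.95 ± 0.28 (edgeR, adjusted p = 0.482). Itgb3 was higher at an unadjusted p under 0.05, as were 3.97% of all genes.

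Lymphatic endothelium was followed with Lyve1, Pdpn, Ccl21a, Reln and Mmrn1 beside Prox1 and Flt4. Of these 5, 3 were tested. Lyve1, which is also made by some macrophages, was lower at an unadjusted p under 0.05, as were 5.62% of all genes. Lyve1 had 1.73, 4.16, 12.7, 5.10 and 56.5 CPM in vehicle and 2.94, 1.39, 5.54, 4.44 and 6.997 CPM in liraglutide tumors. Vehicle tumor 5, which was also highest for Prox1, stood far above the other 9, and the log2 fold change was -1.91 ± 0.84 (edgeR, adjusted p = 0.515). Without that tumor it was -0.45, and with limma-voom on all tumors -0.98. The other lymphatic genes were mixed in vehicle tumor 5. Ccl21a and Reln had their highest vehicle value there, and Mmrn1 was at 2.12 CPM, below vehicle tumor 4 at 2.43 CPM. Flt4 and Pdpn had their lowest vehicle value there, at 6.68 and 2.69 CPM. Markers of other cells differed between tumors too. All 11 tested leukocyte genes had positive fitted changes (median 0.26; summed level 242 to 460 CPM in vehicle and 283 to 529 CPM in liraglutide tumors), and so had all 9 tested skeletal muscle genes (median 0.74; 207 to 885 and 494 to 1586 CPM). All 6 tested keratinocyte genes did as well (median 2.15), with summed levels of 9.19 to 21.3 CPM in vehicle and 7.17 to 224.8 CPM in liraglutide tumors. Liraglutide tumors 2, 4 and 5 were above every vehicle tumor (224.8, 82.6 and 58.1 CPM), and liraglutide tumors 1 and 3 were below all of them (7.17 and 9.02 CPM). Of the 6 genes, 5 were higher at an unadjusted p under 0.05 with edgeR (3.97% of all genes) and 0 with limma-voom. Fibroblast genes were split, 4 positive and 5 negative (median -0.01; 1422 to 3529 and 1913 to 3572 CPM). Of the adipocyte genes 2 were positive and 3 negative (median -0.03; 43.1 to 143 and 45.6 to 126 CPM), and of the epithelial genes of the tumor 5 were positive and 3 negative (median 0.27). No gene of these lists had an adjusted p under 0.05 with edgeR, and the part of cell mixture in the values of the endothelial genes was not tested.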

How the data were processed

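RNA was isolated from frozen fragments of 10 tumors (5 per group), depleted of ribosomal RNA and sequenced as read pairs with a kit that marks strand. The authors deposited raw counts per gene, whole numbers without normalization, made by mapping with Bowtie and TopHat and counting with featureCounts after samples were filtered for quality. How strand and multiply mapping reads were handled, and which annotation release was used, were not given in the sources used here. The paper names GRCm39 as the mapping reference, whereas the submitters' processing notes list mm10 and GRCh38. Gene symbols and exon lengths were therefore taken from GENCODE M39 by Ensembl identifier without version (51731 of 55401 identifiers, 93.38%, holding 98.31% of the counts), and the only coordinates given are those of the RefSeq promoter table (GRCm38.p6).

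Groups were taken from the sample titles. Genes were filtered with edgeR 4.0.16 (filterByExpr, 17464 genes kept), scaled by TMM and compared between treatments with the quasi-likelihood F test in R 4.3.3, with no other covariate and with Benjamini-Hochberg adjustment over all genes tested. The standard error is the size of the log2 fold change divided by the square root of F. Log2 CPM used a prior count of 2. For single genes an exact permutation test (two-sided, 252 groupings) was run as well, whose smallest p is 0.00794. Alternatives to this fit were DESeq2 1.42.0, the tool of the study, without independent filtering, limma-voom (limma 3.58.1), and edgeR with RLE size factors, with unscaled library sizes, with a filter of 1 count in all, with a filter of 10 counts per tumor, with a block for tumor number, and with 1 tumor omitted at a time. The fitting script was tested on simulated data.

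The 35 genes, their 5 role groups, the 13 other gene lists and the tests were chosen with earlier results of these data known. All 35 genes are named, and every tumor's value is given for Pecam1, Cdh5, Kdr and Erg, for genes with an unadjusted p under 0.05 and for the largest change in each role group, with others added. From the other lists at most 4 genes of smallest p and fixed defining genes were named. Exceptions were Angpt1, Alas2, Hey1 and the untested lymphatic genes Ccl21a and Reln. The keratinocyte symbol Lor was not matched.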

Additional observations from a re-analysis of the deposited data

Results flagged for a closer look

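For each of the 34 tested endothelial genes, the 5 tumors of each group were examined for a single tumor far from the others. Dixon's ratio was taken on log2 CPM (critical value 0.71 for 5 samples). Of the 68 groups 3 were above this value, where chance alone gives about 1 in 20. The levels below are in CPM, on which the ratios differ and can fall under the critical value. Pecam1 was at 27.0 CPM in liraglutide tumor 2, below the next lowest liraglutide tumor at 32.8 CPM (ratio 0.713). This value was still close to that of the lowest vehicle tumor. Flt4, the receptor VEGFR3, was at 24.6 CPM in liraglutide tumor 5, and the next highest liraglutide tumor was at 8.87 CPM (ratio 0.728). Prox1, the other lymphatic gene of the list, was at 0.595 CPM in that tumor, its lowest value in the liraglutide group. Notch4 was at 9.96 CPM in vehicle tumor 4, and the next lowest vehicle tumor was at 27.0 CPM (ratio 0.756). Dll4, Esm1 and Vwf also had their lowest vehicle value in that tumor.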

How the results depend on the processing

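In each of the 17 alternative fits, 0 endothelial genes had an adjusted p under 0.05. Over all genes the count was 0 in each fit other than DESeq2, which called 40, and the cause was not tested. The number of endothelial genes at an unadjusted p under 0.05 was 1, and it was 0 with limma-voom and 0 with library size alone. Leaving out 1 tumor gave 0 to 2, with 2 without vehicle tumor 4 or vehicle tumor 5, and 0 without vehicle tumor 2, vehicle tumor 3, liraglutide tumor 3 or liraglutide tumor 5. These were not always the same genes. In the fit as reported 5.62% of all genes were lower and 3.97% higher at that level. The shares over all genes were not counted in the fits that left out a tumor. Vwf was under 0.05 in 4 of the 10 fits that left out a tumor. Angpt2 was under it without vehicle tumor 1 or vehicle tumor 5, Notch4 without vehicle tumor 4 and Flt1 without liraglutide tumor 2. Angpt2 was at -0.17 on the log2 scale without vehicle tumor 3, and over these 10 fits Angpt2 ran from -0.35 to -0.17, Notch4 from -0.40 to -0.07, Cdh5 from -0.28 to -0.09, Esm1 from -0.66 to -0.23 and Apln from -0.46 to -0.06. The log2 fold change of Vwf stayed between -0.52 and -0.46 in the 7 alternatives that kept all tumors (adjusted p between 0.341 and 0.620) and between -0.65 and -0.40 without 1 tumor.

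Of the 34 tested endothelial genes, 21 kept their sign in all 18 fits, and 13 changed it in at least 1 fit that left out a tumor. The largest of these 13 was 0.25 in size in the fit as reported. Among fits on all tumors, Pecam1 was 0.021 with library size alone and Tek was -0.005 with the block. Without 1 tumor the log2 fold change ran from -0.097 to 0.051 for Pecam1, from -0.26 to 0.52 for Flt4, from -0.11 to 0.12 for Tek, from -0.14 to 0.24 for Tie1 and from -0.12 to 0.12 for Erg. It ran from -0.077 to 0.407 for Sox17, from -0.011 to 0.313 for Plvap, from -0.11 to 0.21 for Robo4, from -0.061 to 0.275 for Aplnr and from -0.16 to 0.20 for Clec14a. It ran from -0.012 to 0.168 for Rasip1, from -0.23 to 0.05 for Cd34, from -0.235 to 0.089 for Ptprb and from -0.15 to 0.15 for the pericyte gene Rgs5. The count of positive fitted changes was 18 to 20 with all tumors and 13 to 20 without 1 tumor, and the median was 0.02 to 0.07 and -0.07 to 0.12.

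The tumor numbers are shared by both groups. Deviations from the group means of same-numbered tumors had correlations of 0.354, 0.565, -0.0753, 0.0681 and 0.389 across genes for numbers 1 to 5, so they were not taken as pairs, and 1 of the 5 vehicle tumors (number 2) correlated best with the liraglutide tumor of its own number. With the replicate block 0 genes passed the threshold. Vwf was then no longer under an unadjusted p of 0.05, and Ecscr, with a positive log2 fold change of 0.32, was the 1 endothelial gene under it. In that fit 18 fitted changes were positive and the median was 0.05. Sox17 and Hbb-bt had under 10 counts in a tumor and were not in the fit with the stricter filter. At 3 counts the depth sets a floor of 0.207 to 0.315 CPM, which limits Prox1. Counting error and the spread between tumors were not separated in the standard errors.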
